A study of Mus musculus with 8 samples.

Results

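The genes described here encode the machinery that licenses and copies DNA: origin recognition and licensing factors, the MCM2-7 helicase and its activators, the primase and replicative polymerases, the sliding clamp with its partners, and enzymes of nucleotide supply. They were taken from a fixed list of 44 symbols, and all 44 were found among the 55276 gene symbols of the count table and passed the filter on low counts, which left 17344 genes. The RNA came from esophageal epithelium of C57BL6 mice aged 14 to 15 weeks, with no other treatment or allele named in the labels. Bulk libraries were made from sorted cells. Live cells (DAPI negative) with integrin beta-1 on their surface were sorted by Cyto-ID, a dye that marks autophagic vesicles, into a Cyto-ID Low and a Cyto-ID High fraction. The animals were 2 females (Female1, Female2) and 2 males (Male1, Male2), and each gave 1 library of each fraction, so there were 8 libraries in all. The title of the series links a high vesicle content to limited proliferation of basal cells, and the question addressed here is how replication transcripts differed between the fractions.

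Replication origins are loaded in G1, when the origin recognition complex, Cdc6 and Cdt1 place MCM2-7 rings on DNA, and geminin keeps Cdt1 from loading them again later in the cycle. At the start of S phase Cdc45 and the GINS complex turn the rings into active helicases, and polymerases alpha, delta and epsilon copy the strands with the help of the PCNA clamp, its loader RFC, the single-strand binding protein RPA and the enzymes that join Okazaki fragments. In stratified epithelia such as the esophagus, DNA is replicated by cells of the basal and lowest layers, and differentiating cells leave the cell cycle. Many replication genes are transcribed under E2F factors around the G1/S transition.

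Of the 44 replication genes, 36 were lower in Cyto-ID High than in Cyto-ID Low, 0 were higher and 8 did not pass the test (edgeR's quasi-likelihood test with sex as a covariate, Benjamini-Hochberg adjusted p under 0.05). Among all 17344 tested genes, 25.3% were lower and 23.4% higher by the same rule. The median log2 fold change (High over Low) was −1.41 over the 44 genes, with a range from −2.75 for Pole to 0.07 for Orc2, and −0.09 over all tested genes. A fall of at least 2-fold that passed the test was fitted for 30 of the 44, against 15.3% of all tested genes. In 32 of the 44 every High library lay below every Low library in scaled counts per 1e6 (CPM), a separation seen in 24.9% of all tested genes. Since RNA was measured in bulk, a smaller number of cycling cells and less RNA of these genes in each cell cannot be told apart. Scaling by total counts, in place of trimmed-mean scaling, shifted the median over all 17344 genes by −0.55, and all 44 genes then passed as lower. The reported test did not pair the libraries by animal, and the fit with the animal as a block is given in the last section.

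**Figure D1:**
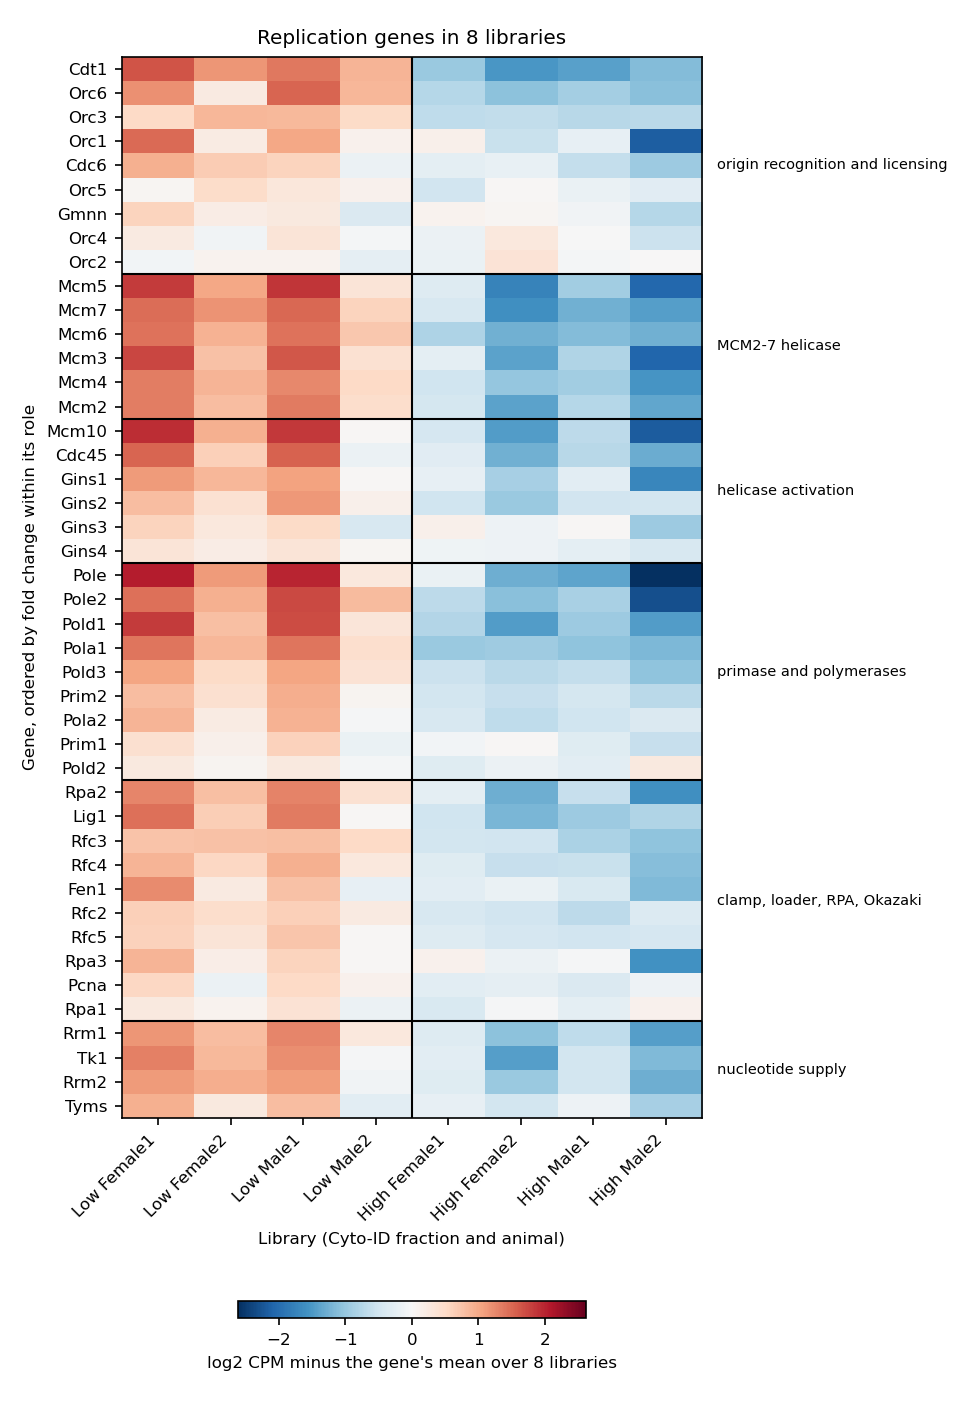
Colour map of 44 replication genes (vertical axis, ordered by fold change within each role) in 8 libraries (horizontal axis, 4 Cyto-ID Low and 4 Cyto-ID High); colour is log2 CPM minus the gene's mean over all 8 libraries. Most genes are red in Low and blue in High, genes such as Orc2, Orc4 and Rpa1 are pale throughout, and Low Male2 is the palest Low column.

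Libraries held 26285150 to 29301054 counts each. Keratinocyte genes were abundant in both fractions, but the fractions differed in layer markers: 9 of 9 basal keratinocyte genes were lower and 8 of 9 suprabasal genes higher in Cyto-ID High. Summed over its list, basal CPM ran from 21010 to 24910 in Low and from 2778 to 4482 in High, and suprabasal CPM from 8626 to 25600 in Low and from 143800 to 240900 in High. The labels call the sorted cells of both fractions basal, and the High libraries held the lower level of those markers. The share of the replication difference that goes with this change in layer markers was not tested. Of the lists for other cell types, 1 of 8 tested leukocyte genes, 1 of 8 fibroblast genes, 0 of 7 endothelial genes and 1 of 8 muscle genes were lower in High, and none was higher. Their sums ran, in Low and in High, from 67.2 to 110 and from 7.31 to 110 CPM (leukocyte), from 332 to 539 and from 43.9 to 494 CPM (fibroblast), from 12.7 to 24.0 and from 2.62 to 28.8 CPM (endothelial), and from 41.4 to 65.4 and from 5.09 to 62.9 CPM (muscle). High Male2 had the lowest of each of these sums, with Cd3e, Cd4, Cd8a, Kdr and Myh2 at 0 counts. Gastric epithelial genes, of which 0 of 6 passed the filter, summed to 17.3 CPM in Low Female2 and 108 in High Female2 and to at most 0.978 elsewhere. Without both Female2 libraries 30 of the 44 replication genes were lower, and without both Male2 libraries 33 were, with 0 higher in each case. The calls lost without Female2 were those of Orc1, Orc5, Gins1, Gins4, Fen1 and Tyms (adjusted p 0.0518 to 0.0877), and those lost without Male2 were those of Orc5, Gins4 and Pcna (0.0616 to 0.142).

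Among the 9 genes of origin recognition and licensing, 6 were lower and 3 (Orc2, Orc4 and Gmnn) did not pass, with a median log2 fold change of −1.07. Sizes of falls and rises are given on the log2 scale throughout. Cdt1, the factor that brings MCM rings to origins (GRCm38 chr8:122568015-122573554, plus strand, 7 exon blocks), was at 26.3, 18.9, 22.0 and 15.5 CPM in the Low libraries of Female1, Female2, Male1 and Male2, and at 4.25, 2.87, 3.09 and 3.81 CPM in their High libraries. The 4 High values lay far below the 4 Low values, with 3.50 ± 0.64 against 20.7 ± 4.6 CPM (SD, n = 4 each). Its log2 fold change was −2.55 (SE 0.21, adjusted p 1.84e-05), which is 5.87-fold lower and the lowest of the group. Geminin (Gmnn), which binds and blocks Cdt1, had 12.8, 9.76, 10.1 and 6.52 CPM in Low and 9.07, 8.79, 7.97 and 5.04 CPM in High, in the same animal order. Each animal's High value was below its Low value, but the 2 fractions overlapped. The log2 fold change of Gmnn was −0.34 (SE 0.21, adjusted p 0.212), and the fit with the animal as a block gave an adjusted p of 0.0495. The ratio of Cdt1 to Gmnn counts, which no scaling of the libraries can alter, was 2.06, 1.93, 2.18 and 2.38 in Low and 0.468, 0.327, 0.388 and 0.755 in High. It was lower in High than in Low in each animal. This is 1 of 3 count ratios that were chosen after the values were seen and are given as descriptions, without a test. Their level depends on the lengths of both genes, so only the difference between libraries can be read.

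The subunits of the origin recognition complex did not move together. Orc2, a core subunit, had 19.3, 21.8, 21.9 and 17.3 CPM in Low and 18.2, 26.1, 19.7 and 20.5 CPM in High. The fractions overlapped, and 2 animals were higher and 2 lower in High. Its log2 fold change was 0.07 (SE 0.16, adjusted p 0.752), and it became −0.50 with scaling by total counts (adjusted p 0.0157). Orc3, which sits beside Orc2 in the complex and is described here because its values stood out, had 20.0, 25.4, 25.3 and 19.6 CPM in Low and 8.72, 8.93, 8.46 and 8.54 CPM in High. Its High libraries were nearly level, at 8.66 ± 0.21 against 22.6 ± 3.2 CPM in Low (SD, n = 4 each), and Orc3 fell by 1.38 on the log2 scale (SE 0.15, adjusted p 5.93e-05). The ratio of Orc3 to Orc2 counts was 1.04, 1.16, 1.16 and 1.14 in Low and 0.480, 0.342, 0.430 and 0.416 in High, without overlap of the fractions, as a description of a pair chosen on its values. Of the 3857 exon bases of Orc2, 1150 are overlapped by Nif3l1 on the other strand. Nif3l1 held 3169 counts in all beside 4682 for Orc2, so the count of Orc2 and this ratio are uncertain.

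Orc6, the subunit least tightly bound to the complex, fell by 1.97 (SE 0.25, adjusted p 0.000176), from 43.9, 22.5, 55.4 and 34.9 CPM to 11.3, 9.01, 10.3 and 8.90 CPM. Orc4 had a log2 fold change of −0.21 (SE 0.19, adjusted p 0.405) and Orc5 of −0.47 (SE 0.17, adjusted p 0.0472). Orc1, the subunit that is made and destroyed with the cell cycle, had 4.60, 1.87, 3.32 and 1.75 CPM in Low and 1.77, 1.04, 1.37 and 0.309 CPM in High. All animals were lower in High, High Female1 lay just above Low Male2, and the values rest on 58 to 149 counts per Low library and 6 to 46 per High library. Orc1 fell by 1.37 (SE 0.48, adjusted p 0.0378). Cdc6, the ATPase that loads MCM rings together with Cdt1, had 3.40, 2.83, 2.64 and 1.57 CPM in Low and 1.47, 1.52, 1.11 and 0.875 CPM in High. Every High value was below the lowest Low value, by little in the case of Low Male2, and Cdc6 fell by 1.07 (SE 0.26, adjusted p 0.00775). The calls of Orc1 and Orc5 depended on the libraries and the method. Orc1 no longer passed without Low Female1, Low Male1, Low Male2, High Female2 or High Male2 (adjusted p 0.0568 to 0.161), and Orc5 without Low Female2, Low Male1, Low Male2, High Female1, High Male1 or High Male2 (0.0751 to 0.132). With all 8 libraries, Orc5 did not pass with RLE size factors (0.0744), with no filter on low counts (0.0718) or in DESeq2 (0.0833), nor Orc1 in limma-voom (0.0547).

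All 6 subunits of the MCM2-7 ring, the motor of the replicative helicase, were lower in Cyto-ID High, and in each of them every High library lay below every Low library. Their log2 fold changes ran from −2.51 to −1.98 with a median of −2.25, the lowest median of the 6 role groups. Mcm5 (GRCm38 chr8:75109569-75128439, plus strand) had 70.0, 40.0, 72.4 and 24.9 CPM in Low and 15.6, 5.79, 10.4 and 4.73 CPM in High. The animals with more Mcm5 in Low, Female1 and Male1, also had more in High. Mcm5 fell by 2.51 (SE 0.44, adjusted p 0.00106), from 51.9 ± 23.2 to 9.15 ± 4.98 CPM (SD, n = 4 each). Mcm2 (chr6:88883474-88898780, minus strand), the least changed subunit, had 45.8, 31.7, 46.6 and 24.7 CPM in Low and 13.0, 6.83, 10.7 and 7.05 CPM in High. The lowest Low library, Male2, still held more than the highest High library, and Mcm2 fell by 1.98 (SE 0.28, adjusted p 0.000299). The remaining subunits lay between, with log2 fold changes of −2.24 for Mcm3 (adjusted p 0.00136), −2.01 for Mcm4 (9.25e-05), −2.25 for Mcm6 (2.58e-05) and −2.34 for Mcm7 (0.000128).

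Because most replication genes fell together, the promoters of a few genes are shown with letters that E2F factors and the CCAAT-binding factor NF-Y are known to recognise. Each line holds the 250 bases upstream of the RefSeq transcription start (build GRCm38.p6), written 5′ to 3′ on the gene's strand. Capitals mark matches on either strand to TTCCCGC or TTGGCGC or TTCGCGC or TTGCCGC (E2F letters) and to CCAAT, and matches may overlap. Mcm6 (chr1:128359706-128359955, minus strand), Mcm5 (chr8:75109259-75109508, plus strand) and Pola1, the catalytic subunit of polymerase alpha (chrX:93632156-93632405, minus strand), were among the promoters with most matches. Cdt1 (chr8:122567765-122568014, plus strand) is shown for contrast, as a gene with a fall of similar size that holds neither set of letters in this window. Of the ring genes, Mcm2 and Mcm3 hold no E2F letters in their windows, so Mcm5 and Mcm6 do not stand for all of them. Mcm4 had no promoter entry and was not searched. None of the windows shown overlaps an annotated exon.
Mcm6: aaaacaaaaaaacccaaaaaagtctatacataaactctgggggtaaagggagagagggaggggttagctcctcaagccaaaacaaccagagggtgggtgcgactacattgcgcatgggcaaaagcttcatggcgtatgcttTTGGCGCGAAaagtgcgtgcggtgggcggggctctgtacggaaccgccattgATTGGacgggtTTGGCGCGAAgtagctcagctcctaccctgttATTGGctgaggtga
Mcm5: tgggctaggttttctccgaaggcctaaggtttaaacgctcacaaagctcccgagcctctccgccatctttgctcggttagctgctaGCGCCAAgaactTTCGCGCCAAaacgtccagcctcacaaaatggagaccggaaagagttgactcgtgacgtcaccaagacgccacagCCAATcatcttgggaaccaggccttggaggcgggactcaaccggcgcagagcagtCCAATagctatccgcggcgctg
Pola1: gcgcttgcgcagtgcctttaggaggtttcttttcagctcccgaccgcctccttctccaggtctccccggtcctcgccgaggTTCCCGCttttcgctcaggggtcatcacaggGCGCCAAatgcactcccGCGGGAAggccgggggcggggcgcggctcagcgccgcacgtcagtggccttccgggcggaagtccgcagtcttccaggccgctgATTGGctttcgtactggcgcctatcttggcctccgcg
Cdt1: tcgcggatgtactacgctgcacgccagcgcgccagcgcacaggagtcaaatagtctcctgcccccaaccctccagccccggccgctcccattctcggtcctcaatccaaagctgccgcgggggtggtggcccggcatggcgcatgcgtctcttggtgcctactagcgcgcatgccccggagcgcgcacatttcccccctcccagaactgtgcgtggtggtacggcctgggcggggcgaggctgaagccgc
In the Mcm6 window, the same TTGGCGCGAA run stands at 2 places, each with 1 match on either strand that overlap, and CCAAT was found at 2 places. RefSeq promoters were matched for 36 of the 44 genes. The E2F letters were found in 16 of the 36 (44.4%), against 9.01% of 27025 genes with a promoter entry, and CCAAT in 22 of the 36 (61.1%), against 37.5%. As a comparison with another cell cycle element, the CHR letters (TTTGAA or TTCGAA) were found in 7 of 36 (19.4%), against 19.6% of all genes. Of 53 other replication genes with a promoter entry, from the second list below, 28.3% held E2F letters, 45.3% CCAAT and 18.9% CHR letters. The 27025 genes were not matched to the 36 for base composition or expression. The median log2 fold change was −1.41 over the 16 genes with E2F letters and −1.59 over the 20 without, and it was −1.65 over the 22 genes with CCAAT and −1.35 over the 14 without, and neither difference was tested. A match is only a description of the sequence, and binding was not measured here.

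Of the 6 genes that activate the helicase, 5 were lower and Gins3 did not pass (log2 fold change −0.47, adjusted p 0.236), with a median of −1.39. Mcm10, which helps to open the activated helicase, had 12.7, 6.27, 11.9 and 3.32 CPM in Low and 2.39, 1.13, 1.98 and 0.669 CPM in High. Low Male2 was the lowest Low library and was still above every High library. Mcm10 fell by 2.45 (SE 0.49, adjusted p 0.00237). Cdc45, which joins the MCM ring to form the working helicase, had 12.4, 6.54, 12.6 and 3.83 CPM in Low and 3.47, 1.74, 2.56 and 1.70 CPM in High. High Female1 came close to Low Male2 without overlap, and Cdc45 fell by 1.90 (SE 0.41, adjusted p 0.00353). The 4 GINS subunits, which form one complex, differed in size: Gins1 fell by 1.49 (adjusted p 0.00669) and Gins2 by 1.30 (0.00212). Of the exon bases of Gins2, 2758 are overlapped by Gse1 on the other strand, which held 14707 counts in all beside 1232 for Gins2, so the count of Gins2 is uncertain. Gins4 had 13.5, 12.2, 13.5 and 11.0 CPM in Low and 9.92, 9.71, 8.92 and 7.92 CPM in High. The shift of Gins4 was small but without overlap, and it fell by 0.46 (SE 0.14, adjusted p 0.0229). Gins4 no longer passed without Low Male1, High Male1 or High Male2 (adjusted p 0.0531 to 0.0846), with no filter on low counts (0.0758), or without both libraries of Female2 (0.0609) or of Male2 (0.0952). Gins1 no longer passed without both Female2 libraries (0.0602).

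The 9 genes of primase and the replicative polymerases ranged in log2 fold change from −2.75 to −0.25. Of the 9 genes 7 were lower, Prim1 and Pold2 did not pass, and the median was −1.50. Pole, the catalytic subunit of the leading-strand polymerase epsilon (GRCm38 chr5:110286306-110337474, plus strand), had 25.4, 13.1, 24.1 and 7.33 CPM in Low and 5.36, 2.44, 2.29 and 0.926 CPM in High. Its values varied by animal in both fractions, with Female1 highest and Male2 lowest in each, and no High library reached the lowest Low library. Pole had the lowest fold change of the 44 genes, −2.75 (SE 0.48, adjusted p 0.00113), or 6.73-fold lower. Its partner Pole2 fell by 2.44 (adjusted p 0.000424), the catalytic subunit of polymerase delta Pold1 by 2.42 (0.000383) and Pola1 by 2.12 (5.3e-05). Pold3 fell by 1.50, the primase subunit Prim2 by 1.17 and Pola2 by 1.05. Pold2, an accessory subunit of polymerase delta, had 30.1, 26.4, 30.0 and 24.2 CPM in Low and 20.4, 22.6, 20.7 and 30.0 CPM in High. Pold2 was lower in High in 3 animals and higher in Male2, so the fractions overlapped, and its log2 fold change was −0.25 (SE 0.16, adjusted p 0.245). The catalytic primase subunit Prim1 had a log2 fold change of −0.51 (SE 0.20, adjusted p 0.054). It passed with the animal as a block (adjusted p 0.0228), without Low Male2 (0.0417), with no filter on low counts (0.0236) and with at least 10 counts in every library (0.0447).

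**Figure D2:**
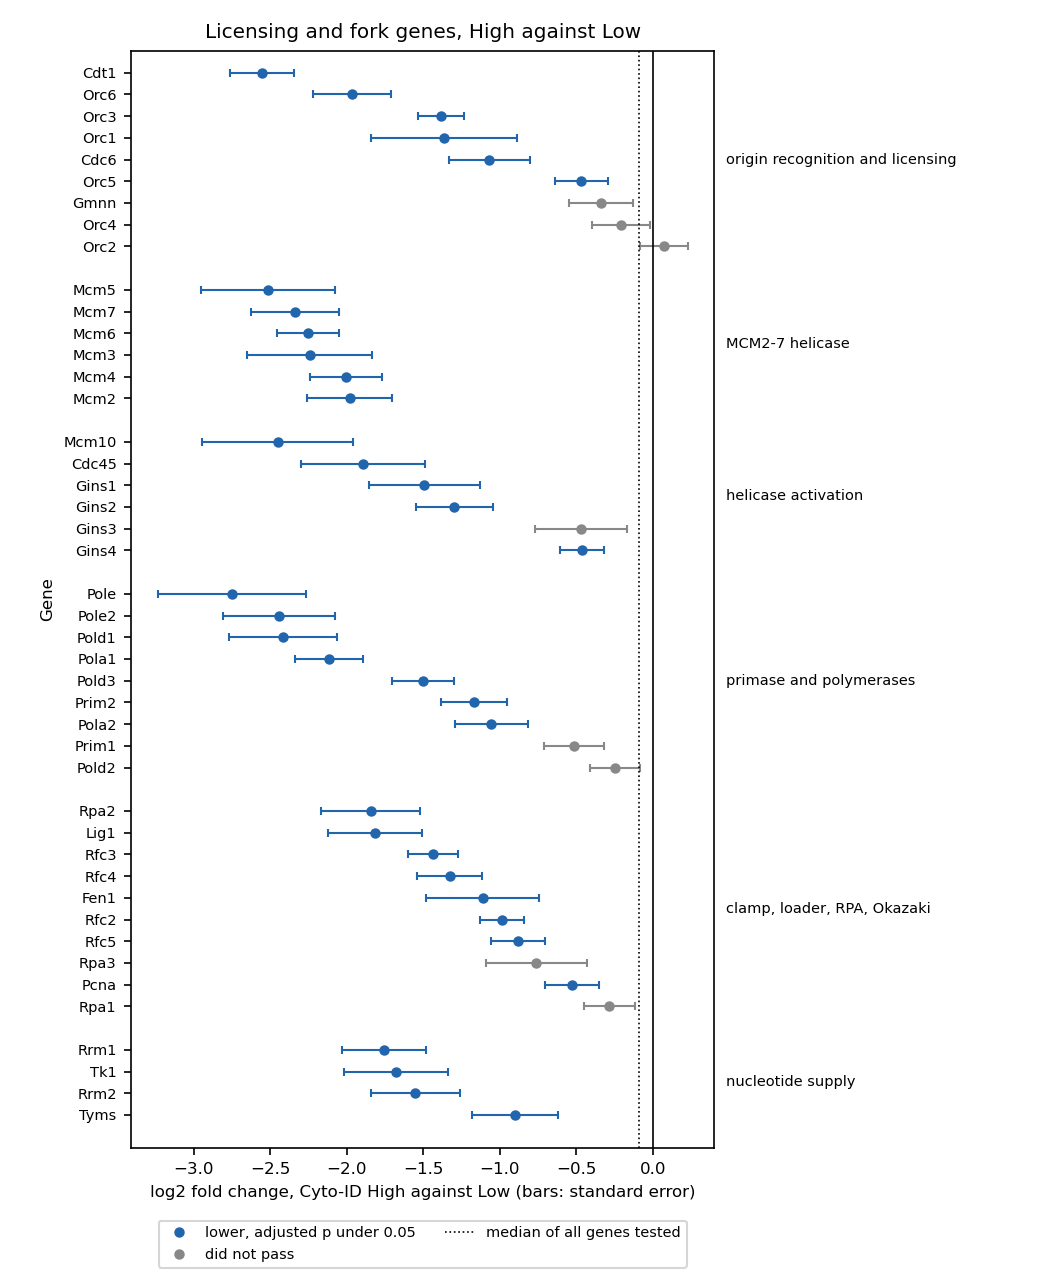
Log2 fold change (High over Low, horizontal axis) with its SE as bars for 44 replication genes (vertical axis, grouped by role), blue where lower with an adjusted p under 0.05 in edgeR's quasi-likelihood test and grey where not passed; the dotted line is the median of all tested genes (−0.09). The 6 MCM2-7 points sit together between −2.51 and −1.98, while licensing factors and polymerases spread from −2.55 and −2.75 to near 0.

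Of the 10 genes for the clamp, its loader, RPA and Okazaki fragment joining, 8 were lower and Rpa1 and Rpa3 did not pass, with a median of −1.05. Pcna, the sliding clamp (GRCm38 chr2:132249162-132253314, minus strand), had 64.0, 39.5, 62.8 and 47.2 CPM in Low and 36.5, 37.5, 33.8 and 40.1 CPM in High. High libraries were close to each other, and High Male2 overlapped Low Female2. The mean of Pcna was 53.4 ± 12.0 CPM in Low and 37.0 ± 2.6 CPM in High (SD, n = 4 each). Pcna fell by 0.53 on the log2 scale (SE 0.18, adjusted p 0.0306), the mildest fall but for Gins4 and Orc5 among the 36 genes. The processed copy Pcna-ps2 took 42.2% to 49.4% of the counts of the pair in every library, and since reads of the near-identical sequences may have been split, the level of Pcna is uncertain. Pcna-ps2 fell by 0.65 (SE 0.16, adjusted p 0.00694). Pcna no longer passed without Low Female1, Low Male1, High Female1, High Female2 or High Male1 (adjusted p 0.0602 to 0.0899).

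The subunits of RPA, which coats single-stranded DNA as a trimer, differed from each other. Rpa2 had 13.7, 9.68, 13.8 and 7.46 CPM in Low and 4.67, 2.26, 3.66 and 1.80 CPM in High. Its fractions were well apart, and Rpa2 fell by 1.84 (SE 0.32, adjusted p 0.00112), the lowest value of the clamp group. Rpa1, the large subunit, had 49.2, 44.0, 54.0 and 37.1 CPM in Low and 31.4, 40.8, 34.7 and 44.9 CPM in High. Male2 was higher in High and the other animals lower, with a log2 fold change of −0.28 (SE 0.17, adjusted p 0.196, and 0.0477 without Low Male2). Rpa3, the small subunit, had −0.76 (SE 0.33, adjusted p 0.0861), and passed with the animal as a block (0.0167), without High Male1 (0.0409) and with no filter on low counts (0.0129). DNA ligase Lig1 fell by 1.82 (adjusted p 0.000871), and the loader subunits Rfc3, Rfc4, Rfc2 and Rfc5 by 1.44, 1.33, 0.98 and 0.88. The flap nuclease Fen1 fell by 1.11 (SE 0.37, adjusted p 0.0311), on 35 to 97 counts per Low library and 10 to 26 per High library. Most exon bases of Fen1 are overlapped by Gm10143 on the other strand, so its count is uncertain. The call of Fen1 was lost without Low Female1, Low Male1, High Female1, High Female2 or High Male2 (adjusted p 0.0643 to 0.122), and in limma-voom (0.0619).

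All 4 genes of nucleotide supply were lower, with a median of −1.62. Rrm1, the large subunit of ribonucleotide reductase, had 114, 90.5, 125 and 61.7 CPM in Low and 40.5, 24.5, 32.2 and 18.9 CPM in High. Its fractions did not overlap, and Rrm1 fell by 1.76 (SE 0.28, adjusted p 0.000554). The partner subunit Rrm2, which is limiting for the enzyme in S phase, had 29.4, 26.0, 28.9 and 12.7 CPM in Low and 10.9, 6.83, 9.61 and 5.50 CPM in High. Low Male2 stood below the other Low libraries but above all High libraries, and Rrm2 fell by 1.55 (SE 0.29, adjusted p 0.00154). Thymidine kinase Tk1, of the salvage route, had 32.5, 23.7, 30.7 and 12.9 CPM in Low and 10.9, 4.79, 9.34 and 5.81 CPM in High. It had the same order of animals in Low as Rrm2 and no overlap, and Tk1 fell by 1.68 (SE 0.34, adjusted p 0.00247). Thymidylate synthase Tyms had 15.5, 9.60, 14.2 and 6.67 CPM in Low and 6.91, 5.75, 7.36 and 4.42 CPM in High. Low Male2 overlapped the High libraries, and Tyms fell by 0.90 (SE 0.28, adjusted p 0.0233). The copy Tyms-ps held 584 counts in all beside 2117 for Tyms, and the call of Tyms was lost without Low Female1, Low Male1, High Female2 or High Male2 (adjusted p 0.0541 to 0.106).

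The difference was present in each animal. The median High minus Low difference in log2 CPM over the 44 genes was −1.34 for Female1 and −1.29 for Female2, −1.58 for Male1 and −1.20 for Male2, and the medians over all tested genes lay between −0.09 and −0.07. High was below Low for 44 genes in Female1 and Male1, for 42 in Female2 and for 41 in Male2. All 4 animals had the same sign for 40 genes, the exceptions being Orc2, Orc4, Pold2 and Rpa1. For these counts of signs, no share over all tested genes was taken. A different size of the change in males and females was tested with an interaction term. None of the 17344 genes passed (0%, edgeR's quasi-likelihood test, 19 at an unadjusted p under 0.05), and none of the 44 replication genes had an unadjusted p under 0.05. In the blocked fit 0 genes passed again, 38 had an unadjusted p under 0.05, and Pole was the 1 replication gene among them (p 0.0248 in edgeR's test). The median SE of this difference was 0.53, or 0.33 with the block, so with 2 animals per sex only large differences could have been seen.

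**Figure D3:**
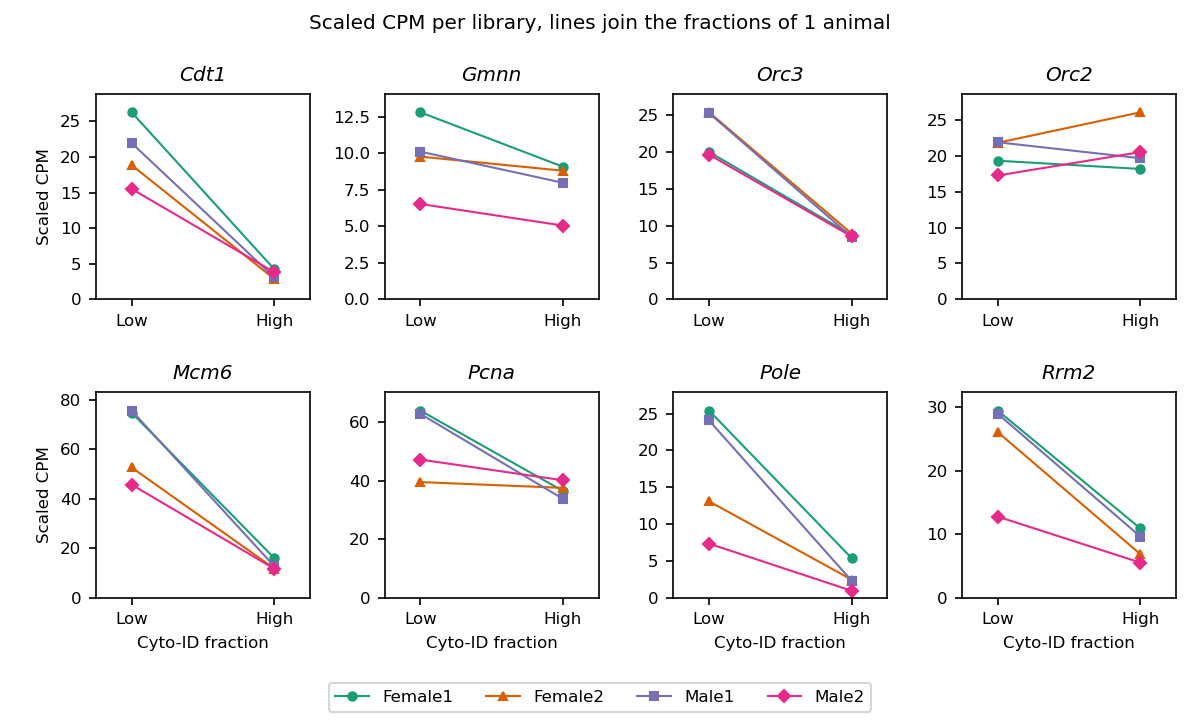
Scaled CPM (vertical axes, each from 0) of 8 replication genes in the Cyto-ID Low and High libraries (horizontal axes), 1 point per library, with lines and colours for the 4 animals. Cdt1, Orc3, Mcm6, Pole and Rrm2 drop in every animal, Gmnn and Pcna slope down less with overlapping fractions, and the lines of Orc2 cross.

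Libraries of one fraction also differed from each other in a way many replication genes shared. Low Male2 was the lowest Low library for 40 of the 44 genes, and Low Male1 or Low Female1 was the highest for 22 and 20. In High, Male2 was lowest for 29 genes and Female1 highest for 28. The matching shares over all tested genes were not counted. Whether these orders are particular to replication genes was not tested. The CPM of the 44 genes summed to 1257, 911, 1282 and 727 in Low and to 477, 418, 425 and 374 in High, so the highest High library held less than the lowest Low library. The proliferation marker Mki67 had 356, 233, 324 and 126 CPM in Low and 53.0, 19.8, 39.4 and 11.2 CPM in High, and fell by 3.08 (SE 0.48, adjusted p 0.000567). Low Male2 was thus lowest for Mki67 too, and it had the highest suprabasal sum of the Low libraries (25600 CPM). The part of this marker difference in the order of the Low libraries was not tested. Over the Low libraries the highest value of a gene was 1.89 times the lowest in the median (1.20 to 3.81 times), and over the High libraries 1.70 times (1.05 to 5.79 times).

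Levels can be compared between genes only per exon length. In Cyto-ID Low the highest mean CPM per kilobase of exon were those of Pcna (22.2), Orc6 (15.9), Pold2 (14.6), Mcm6 (13.3) and Mcm5 (13.0), and the lowest those of Cdc6 (0.499), Fen1 (0.790), Orc1 (0.830) and Mcm10 (1.11). In Cyto-ID High, Pcna (15.4) and Pold2 (12.4) led, followed by Rpa1 (6.80), Gins4 (6.76), Orc2 (5.47) and Gmnn (5.27). Of these 6 leading genes in High, 4 had not passed the test and the other two, Pcna and Gins4, were among those with the smallest falls. The lowest levels in High were those of Mcm10 (0.201), Cdc6 (0.238) and Pole (0.247). Lengths are the union of annotated exons, so genes with long alternative exons appear lower, and the level of Fen1 is uncertain because most of its exon bases are overlapped by Gm10143. The levels of Pcna and Orc2 are uncertain too, given the copy Pcna-ps2 and the overlap of Orc2 with Nif3l1.

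Beyond the 44 genes, 64 other replication genes were examined as a second list, of which 62 passed the filter. Of these, 42 were lower, 5 higher and 15 did not pass, with a median log2 fold change of −0.99, beside 25.3% lower and 23.4% higher among all tested genes. All 10 genes of fork protection and 10 of 11 that fire origins were lower, as were 5 of 6 in a group of licensing control genes and MCM relatives. Of 8 genes for other polymerases and loaders, 4 were lower and 1 higher, of 8 for Okazaki fragments and topology 2 were lower and 2 higher, of 9 for chromatin at the fork 6 were lower, and of 10 other genes of nucleotide supply 5 were lower and 2 higher. The lowest was Uhrf1, which recognises newly copied methylated DNA, at 30.8 ± 14.4 CPM in Low and 3.33 ± 1.63 in High (SD, n = 4 each), and it fell by 3.22 (SE 0.43, adjusted p 0.000205). Chtf18, of an alternative clamp loader, had −3.04 (adjusted p 0.000216), topoisomerase Top2a −2.97 (0.000593) and cyclin A2 (Ccna2) −2.95 (0.000692).

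The 5 higher genes were Samhd1, Pole3, Nme1, Top2b and Lig3. With scaling by total counts 2 genes were higher. Samhd1, which breaks down deoxynucleotides, had 31.9, 30.4, 22.6 and 30.6 CPM in Low and 70.7, 85.1, 68.2 and 94.9 CPM in High. Every High library was above every Low library, and Samhd1 rose by 1.47 (SE 0.17, adjusted p 8.48e-05), or by 0.89 with scaling by total counts (0.000291). Pole3, a histone-fold subunit of polymerase epsilon, had 43.8, 47.1, 46.5 and 45.3 CPM in Low and 87.7, 122, 94.9 and 131 CPM in High. It was nearly level in Low and without overlap higher in High, and rose by 1.25 (SE 0.16, adjusted p 0.000159), or by 0.67 with total counts. The ratio of Pole to Pole3 counts was 0.581, 0.278, 0.518 and 0.162 in Low and 0.0612, 0.0200, 0.0241 and 0.00706 in High, lower in High in each of the 4 animals, again as a description of a pair chosen on its values. Nme1, a nucleoside diphosphate kinase, rose by 0.67 (SE 0.13, adjusted p 0.00171), but by total counts it had 0.13 and did not pass (0.528). Top2b, a topoisomerase that non-dividing cells also use, and the ligase Lig3 had log2 fold changes of 0.48 (adjusted p 0.039) and 0.47 (0.0238), which by total counts turned to −0.09 and −0.11. Top2b did not pass without Low Female1, Low Male1, Low Male2, High Female2, High Male1 or High Male2 (adjusted p 0.0591 to 0.129), nor Lig3 without Low Male1, High Female2 or High Male2 (0.0555 to 0.0777), and without Low Male1, High Female2 or High Male2 the number of higher genes was 3 in place of 5. With no filter on low counts, Top2b had 0.44 and did not pass either (adjusted p 0.102).

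**Figure D4:**
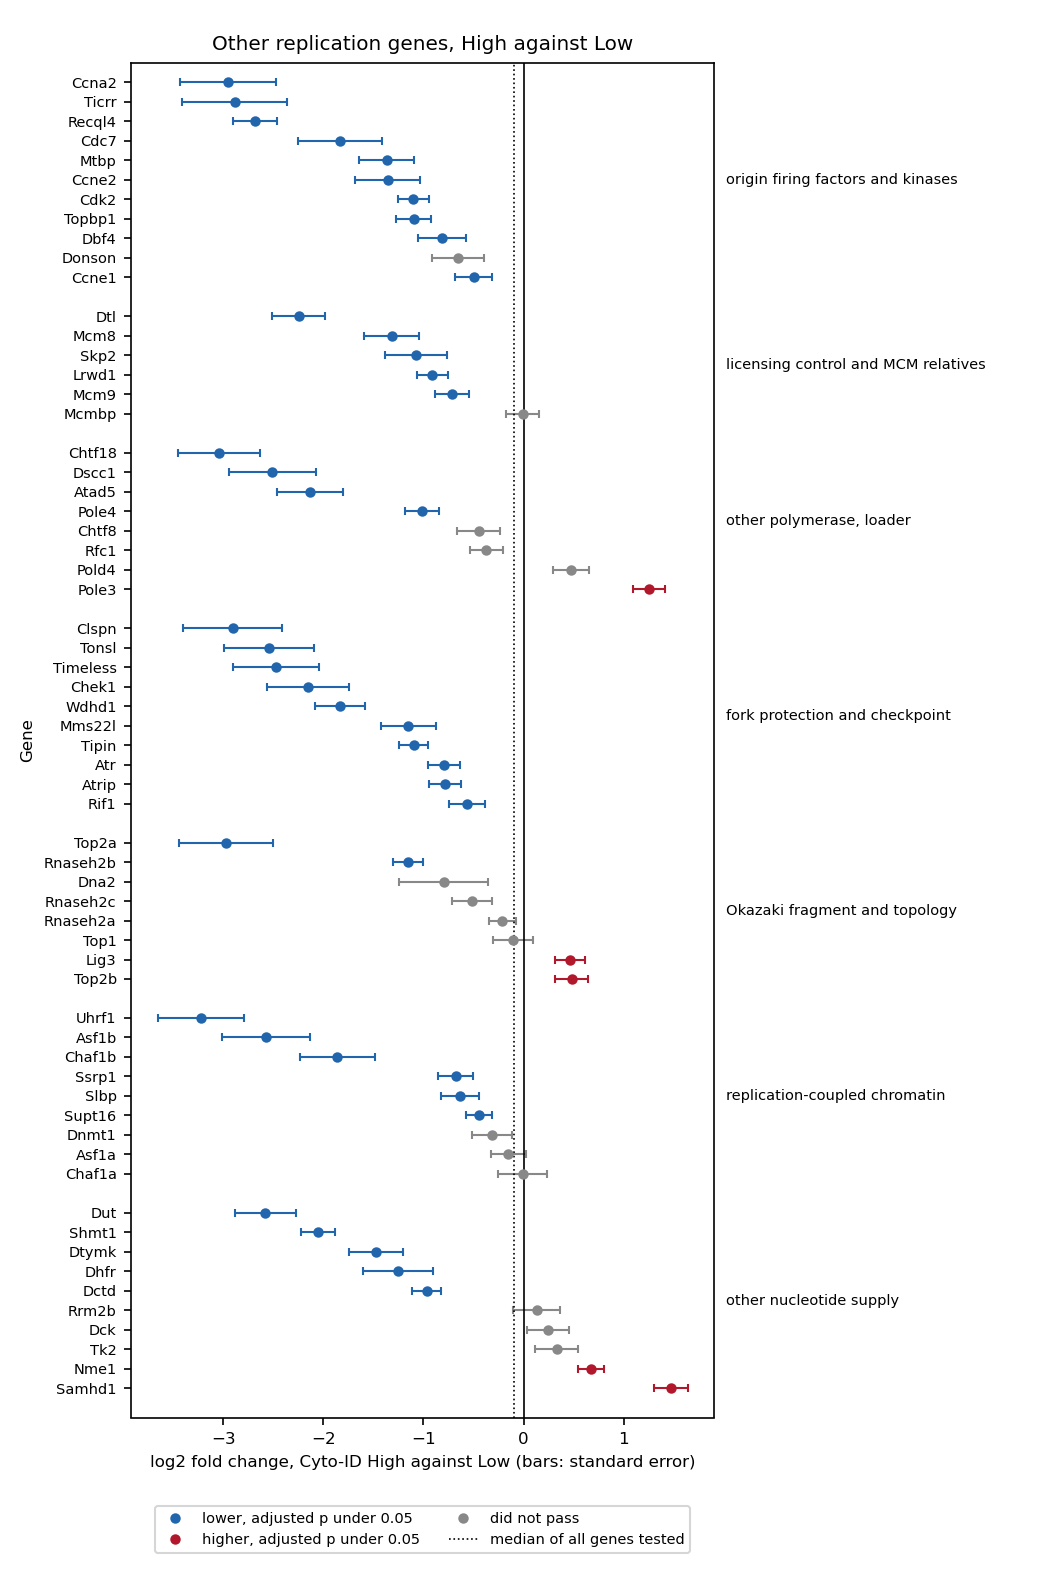
Log2 fold change (High over Low, horizontal axis) with its SE as bars for 62 other replication genes (vertical axis, grouped by role), blue where lower and red where higher with an adjusted p under 0.05 in edgeR's test, grey where not passed; the dotted line is the median of all tested genes (−0.09). Origin firing and fork protection genes lie left of 0, and Samhd1 and Pole3 lie farthest to the right at 1.47 and 1.25.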

How the data were processed

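Raw counts of 8 libraries, by gene symbol, were deposited by the authors in a single table. Per the submitters' processing notes, STAR 2.7.3, DESeq2 and GRCm38 were used, with no role stated. The counting tool, annotation and strandedness are not given in the sources used here, so reads of overlapping genes and copies may be shared; 16 of the 44 genes share exon bases with another gene, microRNA genes left out. Libraries were grouped by the label for the Cyto-ID fraction. The fit was made with edgeR 4.0.16 in R 4.3.3: filterByExpr, trimmed-mean scaling (TMM), glmQLFit and glmQLFTest with fraction and sex over all libraries, and Benjamini-Hochberg adjustment over all tested genes at 0.05, two-sided. Adjusted p-values in the text are from this test unless another is named. The SE of a fold change is its size over the root of F. CPM were scaled by TMM; a prior count of 2 was added for log2 CPM.

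The replication genes and all lists were chosen with earlier results of these data known. Values per library are given for 9 preset genes (Mcm2, Orc1, Cdc6, Cdt1, Gmnn, Cdc45, Pcna, Rrm2 and Tk1) and for the members with the lowest and highest fold change of each role. Of the other replication genes, the 4 lowest and 4 highest that passed are named, and Lig3 as the last of the 5 higher genes. Orc3, Orc6 and the count ratios were added after their values were seen.

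Same-named libraries come from 1 animal, since the labels give each animal name to 1 library of each fraction. Deviations from the fraction means correlated across genes at 0.43, 0.32, −0.02 and 0.28 in Female1, Female2, Male1 and Male2, and from −0.37 to 0.35 between different animals. The value of 0.35 was that of High Male1 with Low Female1. The pairing of Male1 thus rests on the names. Alternatives were RLE factors, total-count scaling, no filter, at least 10 counts in every library, DESeq2 1.42.0, limma-voom (limma 3.58.1), no covariate, the animal as a block, and libraries left out singly or by animal. Gene positions and exon lengths are from GENCODE M21, and promoters from RefSeq.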

Additional observations from a re-analysis of the deposited data

Results flagged for a closer look

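In 6 of 104 groups of 4 libraries (1 gene in 1 fraction), a single library stood so far from the other 3 that the gap, as a share of the range, was above Dixon's critical value. Chance gives this in about 1 of 20 groups. In the Low fraction, Male2 was lowest for Rrm2 (12.7 CPM, others 26.0 to 29.4) and for the clamp loader subunit Rfc3 (10.3 CPM, others 12.1 to 12.5). Male1 was lowest in Low for Samhd1, at 22.5 CPM beside 30.4 to 31.9. In the High fraction, Rpa3 was at 1.49 CPM in Male2 and at 4.14 to 4.98 elsewhere. Gins2 was at 2.26 CPM in High Female2 and at 3.09 to 3.19 in the other High libraries. Chtf18 was at 1.77 CPM in High Female1 and at 0.877 to 0.958 in the others.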

How the results depend on the processing

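Over 18 alternatives, the number of the 44 replication genes that were lower ran from 30 to 44 (36 as reported) and the number higher was 0. Of the 36 lower genes, 29 passed as lower under every alternative that tested them, the exceptions being Orc1, Orc5, Gins1, Gins4, Pcna, Fen1 and Tyms. With scaling by total counts the median of the 44 was −1.97, Orc2 had −0.50, Top2b had −0.09, and 2 other replication genes were higher in place of 5. That number was 3 with no filter and 3 without both Male2 libraries. Leaving out 1 library in turn gave 30 to 36 lower genes, medians from −1.50 to −1.27, 38 to 42 lower and 3 to 5 higher other replication genes, and an Orc2 value from −0.049 (without High Female2) to 0.167, with −0.002 without Low Female1. The lowest count, 30, came without Low Male1. With the animal as a replicate block, 39 of the 44 genes were lower (median −1.43), Gmnn, Prim1 and Rpa3 being the additions, and of the other replication genes 46 were lower and 7 higher. The block changed no other call among the 44. Beyond construction (fewer libraries or genes), the cause of these shifts was not tested. By the largest count in any library, Fen1, Cdc6, Gins3 and Orc1 were the lowest among the 44, with at most 97, 110, 129 and 149 counts. By the smallest count in a High library, the lowest were Orc1 (6), Fen1 (10), Pole2 (11) and Mcm10 (13).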
